A study of Mus musculus with 12 samples.

Results

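The genes described here are 40 genes of origin licensing and DNA replication, out of 20457 genes in the table, measured in 12 RNA sequencing libraries of mouse hematopoietic stem cells (HSCs). They were chosen by gene name from a list of known replication factors, and all 40 were found. They comprise 11 licensing genes, 5 genes of helicase activation, 8 genes of the sliding clamp, its loader and replication protein A, 7 polymerase and Okazaki fragment genes, 5 genes of nucleotide supply, and 4 genes of the E2F and cyclin E group that switches the others on.

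Each library was made by Smart-Seq2, which copies whole transcripts into cDNA and carries no molecular identifiers, from 50 cells taken by FACS from the bone marrow of C57BL/6 mice. The mice were 2 months (young) or 28 months (old) old, and the sorted HSCs either lacked or carried IL27RA, a receptor chain for interleukin 27, on their surface. This gave 4 groups of 3 libraries: young IL27RA-, young IL27RA+, old IL27RA- and old IL27RA+. The labels name no further allele or treatment in any group, and the surface gates for HSCs are not stated in what was used here. The labels do not say whether replicates are different mice, so a p-value here reflects only how far these samples scatter, which may be technical. The text gives values within a group in the order of replicates 1, 2 and 3, which names the libraries and implies no rank.

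Before a cell can copy its genome, each replication origin must be licensed. The origin recognition complex, with Cdc6 and Cdt1, loads the ring made of Mcm2 to Mcm7 onto DNA, and Gmnn (geminin) holds Cdt1 back once synthesis has begun. The loaded ring becomes an active helicase when Cdc45 and the GINS complex join it, after which polymerases, clamp, ligase and a supply of deoxynucleotides carry out the synthesis. Most of these genes are transcribed under E2F factors as a cell leaves the resting state, and most HSCs in adult marrow are at rest.

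Libraries held 11669083 to 24153167 reads in genes, and the young IL27RA- group was the deepest, at 19085252 to 24153167 reads against at most 17822817 in any other library. A floor of 3 reads equals 1.93 to 3.77 normalized counts, depending on the library. All 12 HSC markers examined stood at 10 normalized counts or more in every library. Replicate 1 of the old IL27RA- group stood apart: it held about 312300 normalized counts of Igkc, the antibody kappa light chain, where the other 11 libraries held 18.8 to 248, and one of its labels calls it young although its title and its age say old. Counts and medians over the set, and the genes whose difference it moved by more than 1.5-fold, are also given without it. The 10 macrophage markers summed to 4034 to 5687 normalized counts in young IL27RA+ libraries and 1150 to 5874 in old IL27RA+ ones, against 1172 to 1769 and 591 to 1407 in the young and old IL27RA- libraries. In a library of 50 cells, fewer cells that express a gene and less RNA of it per cell cannot be told apart.

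Short promoter sequences show what some of these genes share apart from their function. E2F factors bind sequences close to TTTCCCGC and TTTGGCGC, and these letters were searched on both strands of windows from 250 bases before to 50 bases after each RefSeq start (build GRCm38.p6). Of the 40 genes 32 had a window, and 11 of these (34.4%) held a match: Cdc6, Cdt1, E2f2, Gins3, Mcm3, Mcm5, Mcm6, Mcm7, Pola1, Pold1 and Rfc3. Among all genes with a window, 486 of 27025 (1.80%) held one, and among 17 mitosis genes 0 did. Of 43 other replication genes with a window, which are not among the 40, 9 (20.9%) held one, so a match is not particular to the 40. The sequences below are those of the 3 matching genes with the smallest p in the comparison of old IL27RA+ with old IL27RA- cells, followed by the other matching subunits of the MCM ring, which were added after the values were seen. Each is read 5′ to 3′ along the gene's own strand, and capitals mark the match. In E2f2, Cdt1 and Mcm3 the match lies 39, 32 and 19 bases past the RefSeq start. For Cdt1 and Mcm3 this is within the first bases of the transcript. The E2f2 stretch lies before the start of that gene in the GENCODE annotation, chr4:136172394. The Mcm7 match lies 165 bases before a RefSeq start, but inside the GENCODE span of Mcm7 itself (chr5:138164583-138172422). The stretch around it overlaps a GENCODE exon, of which the gene and strand were not checked.
E2f2, plus strand, chr4:136172294-136172323: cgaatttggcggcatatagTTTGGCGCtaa
Cdt1, plus strand, chr8:122568035-122568064: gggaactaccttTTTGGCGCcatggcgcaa
Mcm5, plus strand, chr8:75109320-75109407: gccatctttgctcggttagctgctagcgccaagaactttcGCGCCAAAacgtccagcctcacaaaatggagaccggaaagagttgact
Mcm3, minus strand, chr1:20820275-20820304: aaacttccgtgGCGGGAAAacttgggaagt
Mcm6, minus strand, chr1:128359706-128359855: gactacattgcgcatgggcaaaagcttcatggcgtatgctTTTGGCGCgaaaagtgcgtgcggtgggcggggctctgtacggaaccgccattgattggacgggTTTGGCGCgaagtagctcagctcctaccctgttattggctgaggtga
Mcm7, minus strand, chr5:138172030-138172059: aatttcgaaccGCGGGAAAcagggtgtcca

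A match is a description of the letters in the window and says nothing of binding in these cells. Mcm6 holds 2 matches in the stretch shown, and Mcm3 holds another match outside it. The fitted differences of matching and other genes are set side by side at the end of the report.

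Levels can be compared between genes only per length of transcript. Per kb of exon, the median over the 12 libraries ran from 0 for E2f2 and 8.59 normalized counts for Mcm10, a helicase activator, to 874 for Mcm3 and 997 for Rpa2, a subunit of the complex that coats single-stranded DNA. All 6 genes of the MCM ring are needed in equal number in the protein, but their RNA was not equal per kb: Mcm4 was the lowest of the 6 in 12 of 12 libraries, at a median of 130.4, and Mcm3 was the highest in 9 libraries. Mcm6 was the highest in 2 libraries and Mcm7 in 1. Of the 40 genes 31 had a read in every library.

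**Figure D1:**
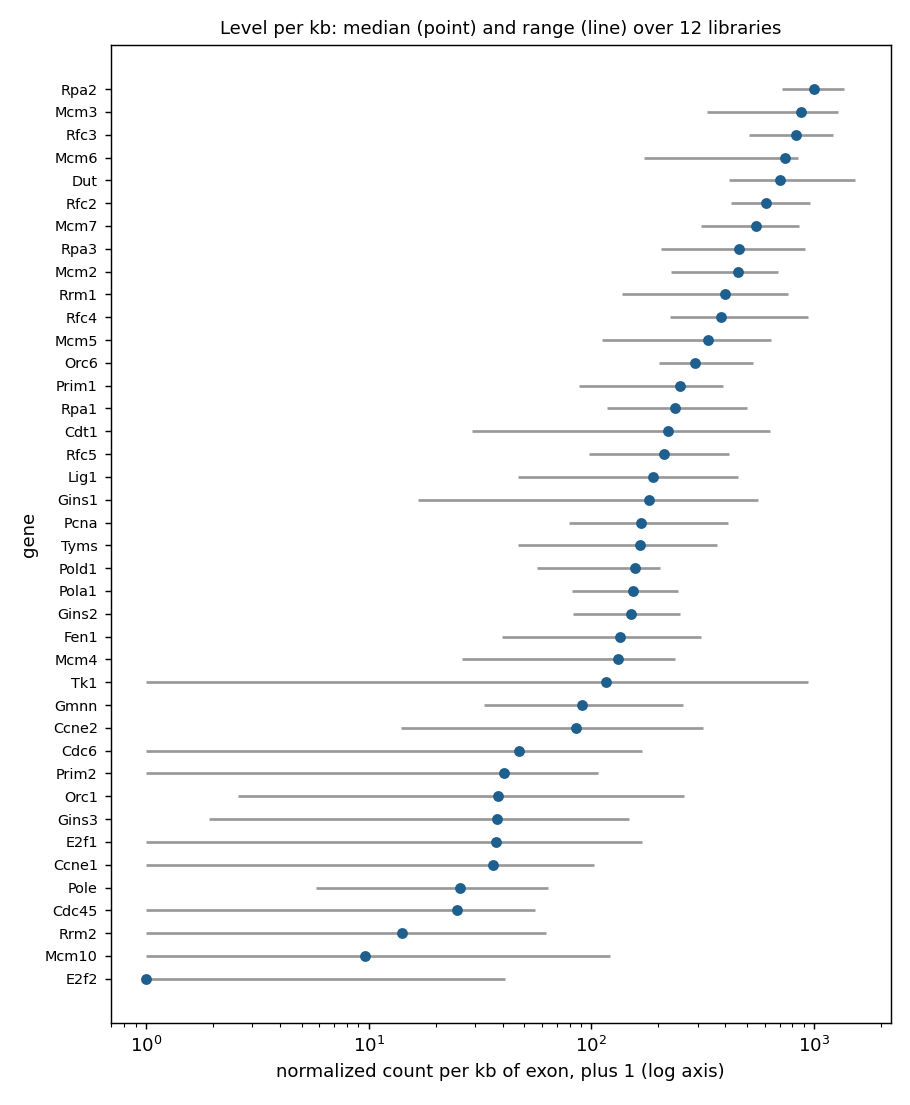
Normalized count per kb of exon plus 1 (horizontal log axis) for the 40 genes, ordered by median. Points are medians and lines the lowest to highest of 12 libraries; E2f2 has a median of 0 (drawn at 1 because of the added 1), and Mcm3 and Rpa2 stand at the top at 874 and 997.

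The libraries that held least and most of the whole set were both old. The 40 genes summed to 17557, 21999 and 22744 normalized counts in old IL27RA- libraries and to 45866, 32362 and 43511 in old IL27RA+ libraries. Young IL27RA- libraries held 33563, 30533 and 34692, and young IL27RA+ libraries held 35947, 37470 and 22577. The old groups did not overlap, while the young groups did, because replicate 3 of young IL27RA+ lay near the old IL27RA- libraries. As a share of all reads in genes, the set took 0.127% ± 0.0217 (SD, n = 3) of old IL27RA- and 0.258% ± 0.0475 of old IL27RA+ libraries. The share was 0.213% ± 0.0156 of young IL27RA- and 0.210% ± 0.0491 of young IL27RA+ libraries. Of the 40 genes, 29 had their highest group mean in old IL27RA+ and 9 in young IL27RA-, and 30 had their lowest in old IL27RA-. Gene values of exactly 0 numbered 12 of 120 in old IL27RA-, 7 in young IL27RA-, 3 in young IL27RA+ and 1 in old IL27RA+ libraries.

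**Figure D2:**
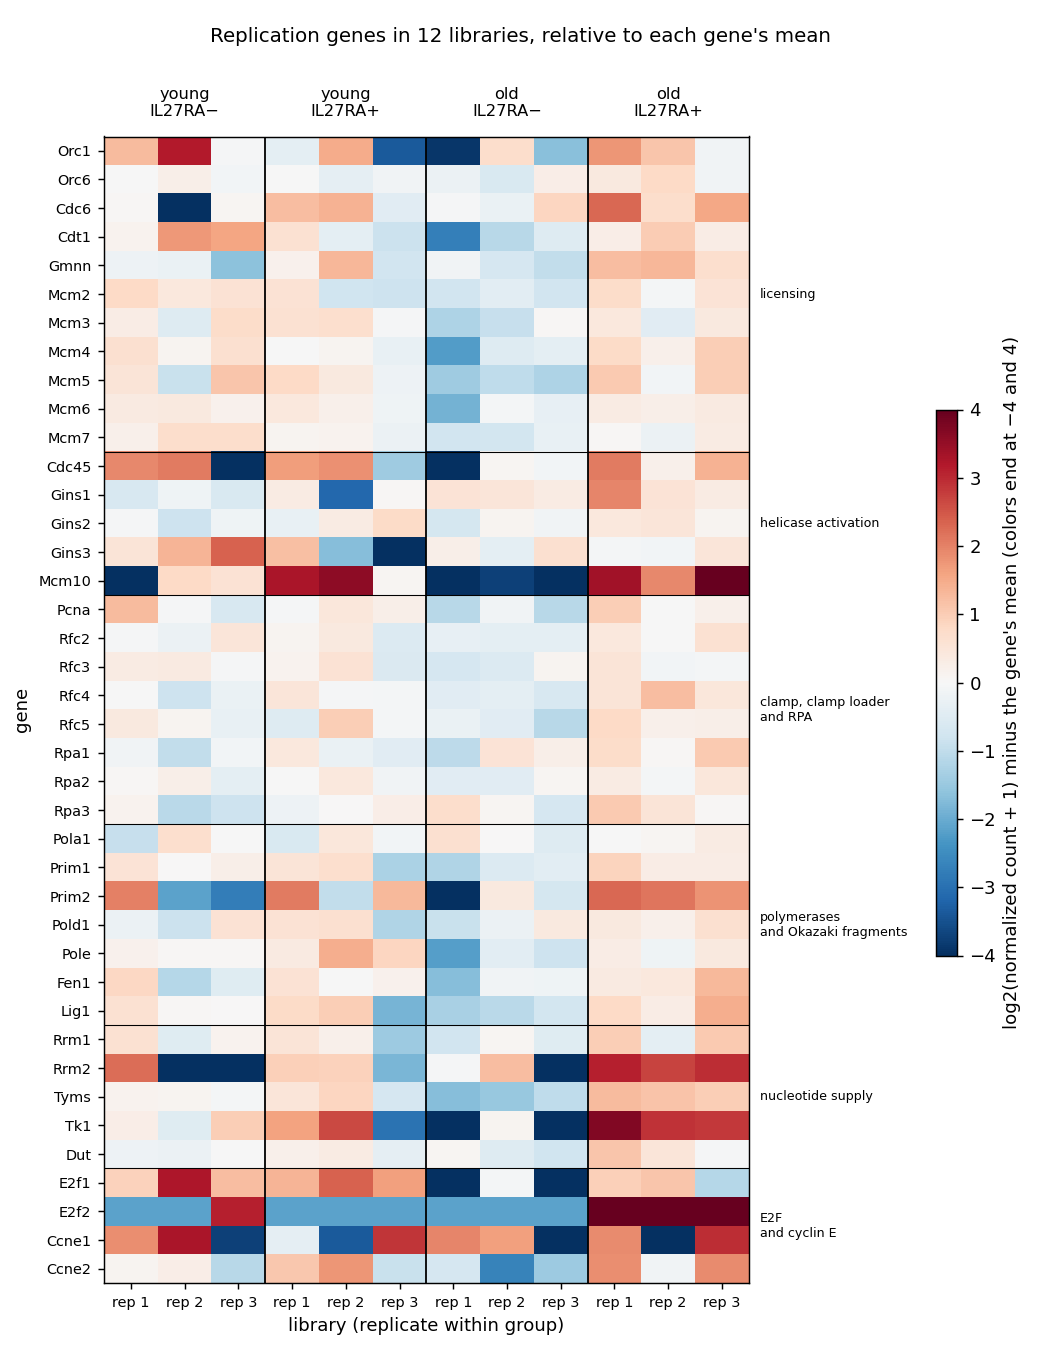
Each cell is the log2(normalized count + 1) of a gene in a library minus that gene's mean over the 12 libraries (colors end at -4 and 4), with genes in rows by role and libraries in columns by group. The old IL27RA- columns are mostly blue and the old IL27RA+ columns mostly red; 30 genes have their lowest group mean in the former and 29 their highest in the latter.

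The sums were compared with those of 20 mitosis genes, which act later in the cell cycle. The mitosis genes summed to 1283, 1529 and 1256 normalized counts in old IL27RA- libraries and to 19220, 15043 and 14631 in old IL27RA+ libraries, again without overlap. In young IL27RA- cells replicate 1 stood at 9039 and replicates 2 and 3 at 2274 and 2053, although the replication sums of these 3 libraries were close to each other. Young IL27RA+ libraries held 12388, 16821 and 2256, so that replicate 3 was low in both sets. From the lowest to the highest library the replication sum differed 2.61-fold and the mitosis sum 15.3-fold.

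**Figure D3:**
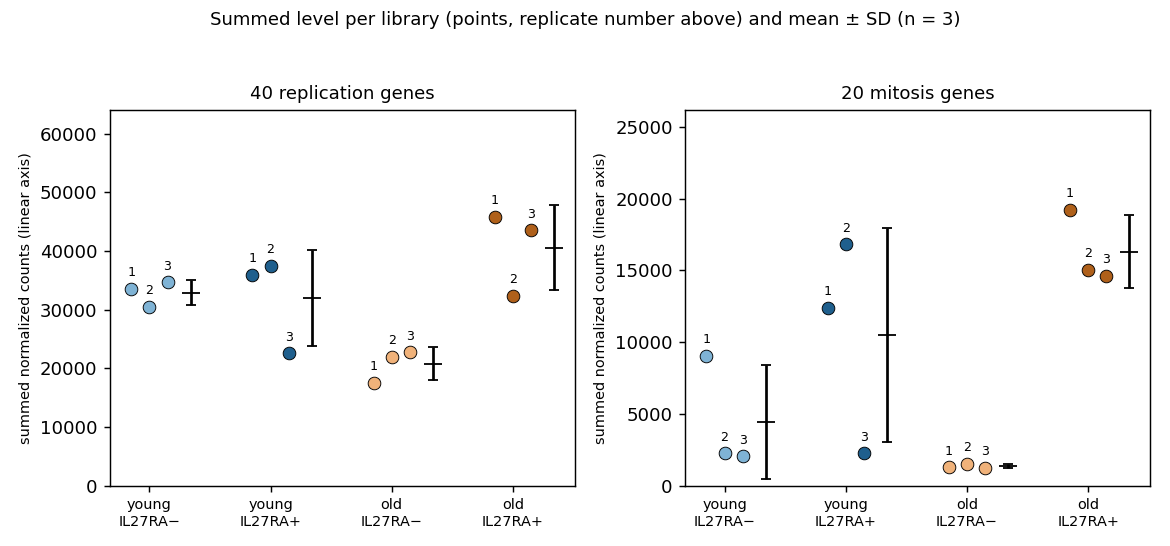
Summed normalized counts per library (points, replicate number above) with group mean ± SD (n = 3) for the 40 replication genes (left) and 20 mitosis genes (right), linear axes from 0. In both panels the 3 old IL27RA+ points lie above the 3 old IL27RA- points; replicate 3 of young IL27RA+ is low in both, and replicate 1 of young IL27RA- is high only on the right.

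Differences below are fitted log2(normalized count + 1) differences with their standard errors, from limma fitted to 14723 genes over all 12 libraries, with p-values adjusted over all of them by the Benjamini-Hochberg method and called at 0.05. All 40 genes passed the filter of at least 10 normalized counts in 3 libraries, E2f2 only through the group in which it is high. None of the 40 was called in any of the 7 comparisons of the design, so no gene of the set rose or fell by this test, and the differences that follow are given as values. Limma voom on the recovered reads called 1 of them, Mcm7, in 1 comparison. The comparisons share libraries (each old IL27RA- library, for example, enters both a comparison of sorted fractions and a comparison of ages), so their results are not independent of each other.

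The comparison of sorted fractions in old mice asks whether old HSCs that carry IL27RA differ from those that do not. Here 39 of 40 genes stood higher in IL27RA+ cells, where 51.9% of all genes tested did. The median difference was 1.20, against 0.02 over all genes. Setting E2f2, which had no read in a group, to the smallest fold its floor allows could not move this median, because that fold also lies above it. At an unadjusted p under 0.05, limma gave 22 of the 40 genes as higher and 0 as lower, against 3.72% and 1.66% of all genes. In 23 of the 40 all 3 old IL27RA+ libraries lay above all 3 old IL27RA- libraries, against 7.25% of all genes, and in 0 the reverse held (5.39%). The 22 and the 23 both include E2f2, which passed the filter only through old IL27RA+ and had to differ. By adjusted p, 0 of 40 passed with limma and 0 with voom, where limma called 0.0272% of all genes. Without replicate 1 of old IL27RA-, 39 of 40 still stood higher, the median was 1.05, and 24 genes did not overlap, against 12.4% of all genes.

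In old cells the differences were unequal between roles. The median was 3.50 in the E2F and cyclin E group, 2.54 in nucleotide supply, 1.34 in licensing and in the polymerase group, 0.70 in the clamp and replication protein A group, and 0.58 in helicase activation. The share with an unadjusted p under 0.05 was 7 of 11 licensing genes, 1 of 5 helicase activation genes, 3 of 8 clamp and replication protein A genes, 4 of 7 polymerase genes, 4 of 5 nucleotide genes and 3 of 4 E2F and cyclin E genes. The last count and the median of 3.50 include E2f2, which passed the filter only through old IL27RA+ and had to differ. These groups are small and the differences between them were not tested.

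In young mice the same comparison of fractions gave 22 genes higher and 18 lower, against 52.3% of all genes higher, with a median of 0.07 (0.04 over all genes). Limma gave 1 gene as higher and 3 as lower at an unadjusted p under 0.05 (4.56% and 3.65% of all genes), and 0 passed the adjusted threshold with limma or voom, where limma called 0.0204% of all genes. Groups did not overlap for 1 gene in each direction (5.05% and 4.73% of all genes), Pole being higher in all IL27RA+ libraries and Mcm7 lower.

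The comparison of ages in IL27RA- cells ran the other way from that of fractions in old cells. Old cells stood lower in 32 of 40 genes, where 52.1% of all genes stood higher, with a median of -0.91 against 0.04 over all genes. At an unadjusted p under 0.05 limma gave 0 genes as higher and 11 as lower, against 6.68% and 5.82% of all genes, and 8 of the 11 were licensing genes. All 3 old libraries lay below all 3 young ones for 12 genes (6.74% of all genes) and above them for 1 (7.8%), which was Gins1. By adjusted p 0 of 40 were called, against 0.672% of all genes; with voom 1 was. The median was -0.56 without replicate 1 of old IL27RA- and -0.50 without replicate 1 of young IL27RA-, while 30 of 40 stayed lower in both cases. Without the former library, 15 genes lay lower without overlap and 2 higher, against 11% and 12.5% of all genes.

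In IL27RA+ cells 37 of 40 genes stood higher in old mice, against 53% of all genes, with a median of 0.52 (0.05 over all genes). Limma gave 2 genes as higher and 0 as lower at an unadjusted p under 0.05, against 5.39% and 3.5% of all genes, and the groups did not overlap for 6 genes higher and 1 lower (9.11% and 7.8%). E2f2, which passed the filter only through old IL27RA+ and had to differ, is in the 2 and in the 6. By adjusted p 0 were called with limma or voom, where limma called 0.421% of all genes. The median was 0.23 without replicate 3 of young IL27RA+, the library with the lowest replication sum of that group, and 29 of 40 genes then stood higher.

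Whether the difference between fractions itself differed with age was tested as an interaction. Its estimate was positive, that is, larger in old mice, for 37 of 40 genes (50.2% of all genes), with a median of 1.17 against 0.01 over all genes. Limma gave 11 positive and 0 negative estimates at an unadjusted p under 0.05, against 2.98% and 2.19% of all genes. The 11 include E2f2, which passed the filter only through old IL27RA+. Without replicate 1 of old IL27RA- the median was 0.99, and without replicate 1 of young IL27RA- it was 0.79. The smallest adjusted p was 0.742, shared by E2f2, Tyms and Mcm2, so 0 of 40 were called, as were 0 by voom and 0% of all genes. Averaged over ages, 38 of 40 genes stood higher in IL27RA+ cells (54.1% of all genes) with a median of 0.56, with 15 higher and 0 lower at an unadjusted p under 0.05 (4.91% and 3.06%), and 0 called by limma or voom, where limma called 0.19% of all genes. Without replicate 1 of old IL27RA- this median was 0.50, with 37 of 40 higher. Averaged over fractions, 17 of 40 stood higher in old mice with a median of -0.18, 2 were higher and 4 lower at an unadjusted p under 0.05 (8.52% and 6.56% of all genes), and 0 were called by limma or voom, where limma called 1.88% of all genes. Without that library the median was -0.03, with 18 of 40 higher.

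Leaving out replicate 1 of old IL27RA- moved the difference of 8 of the 40 genes by more than 1.5-fold, both between old fractions and with age in IL27RA- cells: Orc1, Cdt1, Mcm4, Cdc45, Prim2, Tk1, E2f1 and Ccne1. Between old fractions these differences became 1.39 for Orc1, 1.34 for Cdt1, 1.10 for Mcm4, 1.23 for Cdc45, 2.24 for Prim2, 5.53 for Tk1, 3.25 for E2f1 and 1.54 for Ccne1, and 0 of 40 changed sign. With age they became -1.95 for Orc1, -1.95 for Cdt1, -0.92 for Mcm4, 0.29 for Cdc45, 0.81 for Prim2, -2.64 for Tk1, -4.74 for E2f1 and -1.87 for Ccne1, and 6 of 40 changed sign: Cdc45, Prim2, Gmnn, Pola1, Pold1 and Fen1. The differences of the other 32 genes moved by less, such as that of Mcm2 to 0.99 between old fractions and -1.18 with age, of Mcm5 to 1.77 and -1.37, of Lig1 to 1.75 and -1.14, and of Tyms to 2.39 and -1.33.

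**Figure D4:**
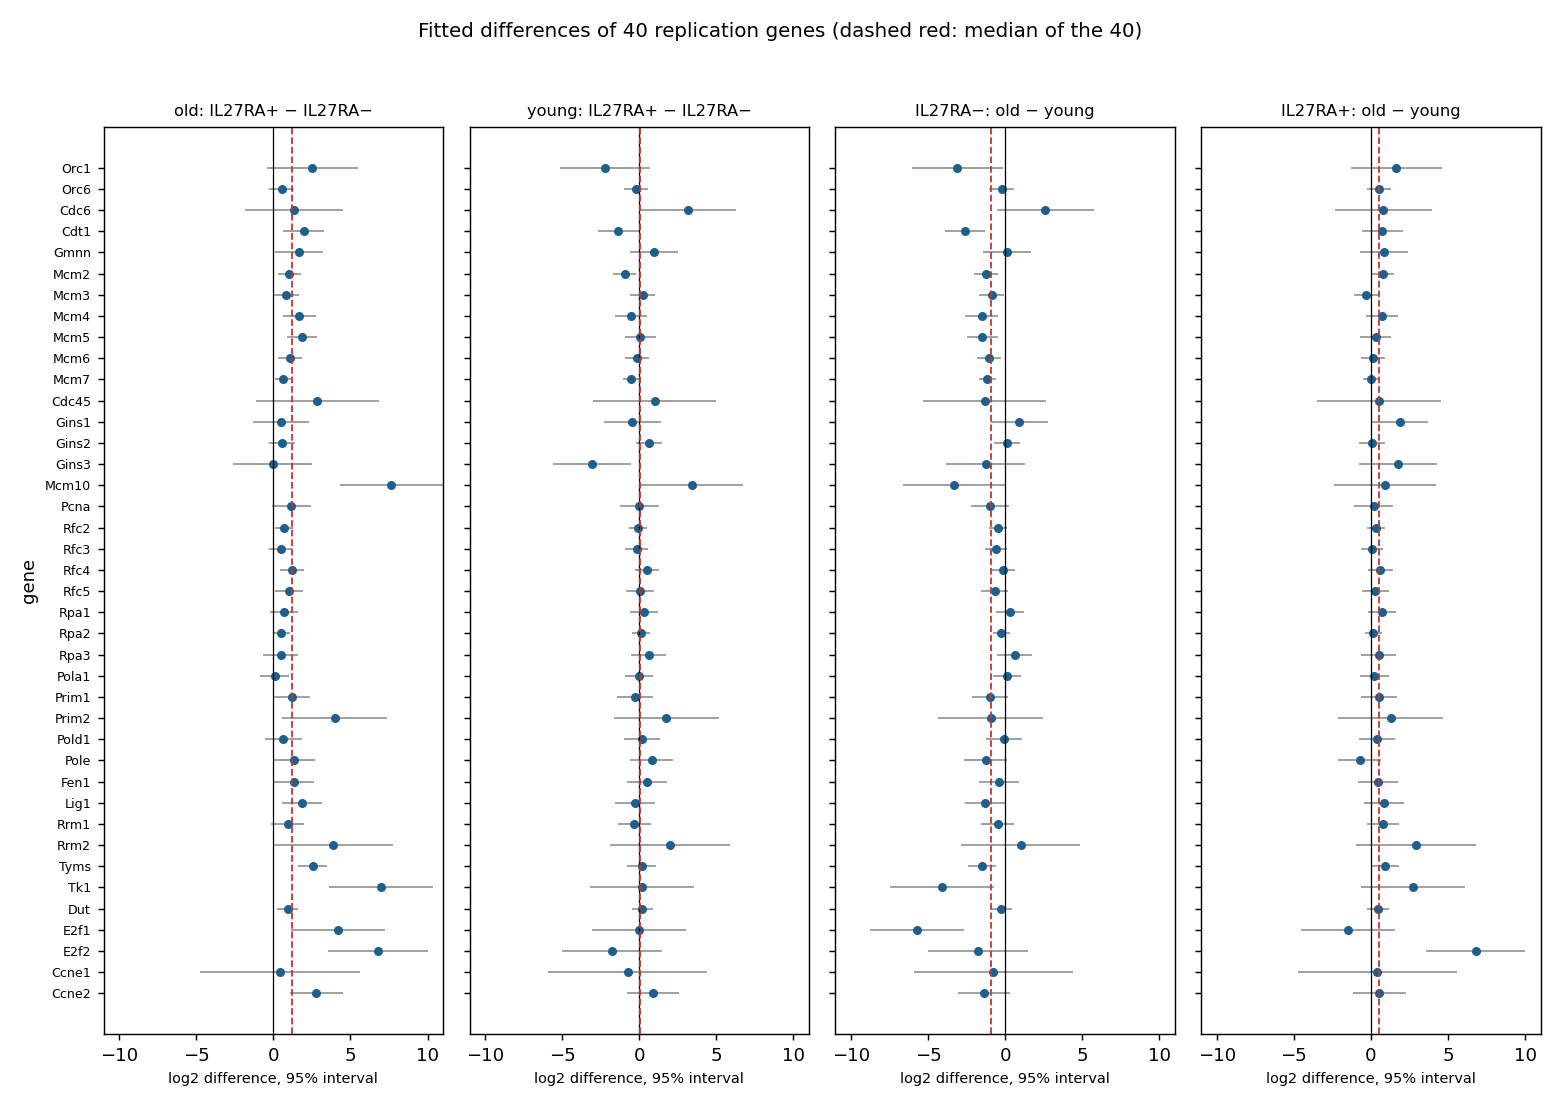
Fitted log2 differences (points) with 95% intervals (lines) for the 40 genes in the 4 comparisons of 2 groups; the dashed line is the median of the 40 and the solid line is 0. In old mice 39 points lie above 0, in young mice 22, in the age comparison of IL27RA- cells 8 and in that of IL27RA+ cells 37.

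The genes of the MCM ring were low in old IL27RA- cells. Mcm2 stood at 2329.9, 1798 and 2009 normalized counts in young IL27RA- libraries, 2002, 769 and 761 in young IL27RA+, 792, 1009 and 797 in old IL27RA- and 2225, 1281 and 1973 in old IL27RA+. Mcm7 stood at 2222, 3139 and 3131, at 2087, 2125 and 1650.4, at 1137, 1147 and 1568, and at 1967, 1617 and 2425 in the same order of groups. For both genes the old IL27RA- libraries lay below every young IL27RA- and every old IL27RA+ library. The difference of Mcm7 with age in IL27RA- cells was -1.14 ± 0.25 (limma adjusted p = 0.0572, 0.0297 to 0.215 over the alternatives). With voom, the test that called it, the difference was -1.25 (adjusted p = 0.0455), and without replicate 1 of old IL27RA- limma gave -1.06 ± 0.28 (adjusted p = 0.166). The age difference of Mcm2 in these cells was -1.24 ± 0.36 (adjusted p = 0.153). Between old fractions Mcm2 differed by 1.05 ± 0.36 (adjusted p = 0.601) and Mcm7 by 0.64 ± 0.25 (adjusted p = 0.797). In young cells both stood lower in the IL27RA+ fraction, Mcm2 by -0.95 ± 0.36 (adjusted p = 0.510) and Mcm7 by -0.53 ± 0.25 (adjusted p = 0.616).

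Mcm5 stood at 1465, 556 and 2211 normalized counts in young IL27RA-, 1795, 1333 and 890.4 in young IL27RA+, 381, 508 and 438 in old IL27RA- and 2131, 959 and 2032 in old IL27RA+ libraries. Its 3 old IL27RA- libraries were close together and below all 9 others. The difference between old fractions was 1.87 ± 0.47 (limma adjusted p = 0.228) and that with age in IL27RA- cells -1.47 ± 0.47 (adjusted p = 0.199). Mcm3 stood at 2881, 1646 and 3897, at 3559.7, 3704 and 2241, at 1002, 1229 and 2417, and at 3112, 1704 and 3069, and its replicate 3 of old IL27RA- lay among the libraries of the other groups. Mcm6 stood at 3539, 3678 and 3128, at 3711, 3182 and 2471, at 746, 2661 and 2229, and at 3488, 3303 and 3531. Its lowest value by far was replicate 1 of old IL27RA-, and the other libraries of that group still lay below all young IL27RA- and old IL27RA+ libraries. Mcm4, which the naming rule did not pick and which was singled out after its values were seen, ran from 90.5 to 328 in old IL27RA- and from 352 to 847 in the other groups.

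Summed over Mcm2 to Mcm7, old IL27RA- libraries held 4150, 6856 and 7778 normalized counts and old IL27RA+ libraries held 13661, 9360 and 13877. Young libraries held 13113, 11284 and 15041 in the IL27RA- and 13579, 11581 and 8366 in the IL27RA+ fraction. The old IL27RA- libraries were therefore the lowest 3 of the 12 by this sum.

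The other licensing genes were the loaders and their control. Cdt1, which brings the MCM ring to origins and was also singled out after its values were seen, stood at 459, 1385 and 1249 normalized counts in young IL27RA-, 636, 317 and 232 in young IL27RA+, 61.6, 193 and 295 in old IL27RA- and 499.9, 853 and 517 in old IL27RA+ libraries. Old IL27RA- libraries lay below those of young IL27RA- and of old IL27RA+, with a difference of -2.60 ± 0.62 with age (limma adjusted p = 0.0822, 0.0320 to 0.391 over the alternatives) and 1.98 ± 0.62 between old fractions (adjusted p = 0.493). Without replicate 1 of old IL27RA- the former was -1.95 ± 0.57 (adjusted p = 0.231). Its inhibitor Gmnn ran from 74.1 to 134 in old IL27RA- and from 240.2 to 375 in old IL27RA+ libraries, but from 47.0 to 128 in young IL27RA-, so that the age difference in IL27RA- cells was 0.10 ± 0.73. Cdc6, the ATPase that loads the ring together with Cdt1, ran from 137 to 299 in old IL27RA- and from 271 to 806 in old IL27RA+ libraries, and its young IL27RA- libraries stood at 169.5, 0 and 174. Its estimate with age in IL27RA- cells was 2.60 ± 1.48, and 0.12 without replicate 2 of young IL27RA-, the library at 0. Orc6 ran from 358 to 950.2 over all libraries with every pair of groups overlapping, while Orc1 ran from 4.81 to 781.

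Helicase activation was the role with the smallest median between old fractions and held the gene with the largest difference. Mcm10 stood at 0, 45.8 and 39.3 normalized counts in young IL27RA-, 261, 319 and 27.6 in young IL27RA+, 0, 1.04 and 0 in old IL27RA- and 274, 101 and 598 in old IL27RA+ libraries. The old IL27RA- value rests on 1 read in 3 libraries, so the fitted difference of 7.66 ± 1.55 between old fractions (limma adjusted p = 0.112) depends on the pseudocount, and it ran from 4.69 to 8.35 over the alternatives. Without replicate 1 of old IL27RA- it was 7.49 ± 1.75 (adjusted p = 0.343). In young mice the estimate was 3.44 ± 1.55 (adjusted p = 0.602), and averaged over ages it was 5.55 ± 1.10 (adjusted p = 0.0624), the smallest of the set in that comparison.

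The GINS genes did not follow this order of groups. Gins1 stood at 100.3, 139 and 102 normalized counts in young IL27RA-, 196, 17.0 and 163 in young IL27RA+, 230.1, 222 and 196 in old IL27RA- and 611, 232 and 198 in old IL27RA+ libraries. All old libraries of a fraction lay above all young ones of that fraction, by 0.93 ± 0.86 in IL27RA- (limma adjusted p = 0.706) and 1.87 ± 0.86 in IL27RA+ cells (adjusted p = 0.550), and the old fractions overlapped. Gins2 stood at 556, 319.9 and 508, at 469, 718 and 967, at 349.5, 618 and 519, and at 760.5, 793 and 616, with overlap in all 4 comparisons. It shares 2758 exon bases with Gse1 on the opposite strand. No source used here states how strand was counted, so reads of the pair cannot be told apart. Shorter overlaps with genes on the opposite strand bring the same limit to other genes of the set. They include 952 bases of Rfc2, 609 of Ccne2, 499 of Rfc5, 376 of Orc1, 321 of Mcm7 (with Ap4m1) and 194 of Rfc4. Gins3 stood at 109.8, 201 and 395, at 179, 22.7 and 2.51, at 90.5, 58.1 and 119, and at 72.1, 71.8 and 109. Its estimate between old fractions, -0.05 ± 1.19, was the only negative value of the 40 in that comparison, and in young cells it was -3.07 ± 1.19 (adjusted p = 0.521). Cdc45 ran from 0 to 30.1 in old IL27RA- and from 32.6 to 124 in old IL27RA+ libraries.

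The clamp, its loader and replication protein A gave smaller differences. Rfc2, a loader subunit, stood at 2999, 2656 and 4352 normalized counts in young IL27RA-, 3362, 4108 and 2121 in young IL27RA+, 2481, 2384 and 2401 in old IL27RA- and 4152, 3061 and 4793 in old IL27RA+ libraries. Rfc4 stood at 567, 326 and 477, at 801, 559 and 548, at 424, 438 and 372, and at 832, 1366 and 786. In both the old fractions did not overlap, with differences of 0.70 ± 0.27 for Rfc2 (limma adjusted p = 0.785) and 1.23 ± 0.37 for Rfc4 (adjusted p = 0.419). Rfc3 stood at 1344, 1364 and 1038, at 1184, 1594 and 712, at 673, 738 and 1145, and at 1540.4, 982 and 1022, and its old fractions overlapped.

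Rpa1, the large subunit of replication protein A, stood at 1118, 623 and 1138 normalized counts in young IL27RA-, 1644, 1018 and 898 in young IL27RA+, 597, 1794 and 1465 in old IL27RA- and 2080.1, 1283 and 2560.4 in old IL27RA+ libraries. Rpa2 stood at 2275, 2566 and 1693, at 2169, 2927 and 1985, at 1621, 1601 and 2314, and at 2748, 2071 and 3029. In the 4 comparisons of 2 groups neither gene separated them, and their differences between old fractions were 0.71 ± 0.42 (95% interval -0.20 to 1.61) and 0.51 ± 0.26 (95% interval -0.05 to 1.06). Pcna, the clamp itself, ran from 118 to 234 in old IL27RA- and from 255 to 507 in old IL27RA+ libraries, with a difference of 1.17 ± 0.59. Rfc5 ran from 311 to 568 and from 788 to 1180.0 in the same groups, again without overlap, and Rpa3 overlapped. Pcna and Tyms have processed pseudogenes in the annotation (Pcna-ps1, Pcna-ps2 and Tyms-ps), and how reads were shared with them is not stated.

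The catalytic subunits of the polymerases gave unequal values. Pola1, which starts each new strand together with primase, stood at 431, 1301 and 799 normalized counts in young IL27RA-, 532, 1117 and 752 in young IL27RA+, 1275, 824 and 565 in old IL27RA- and 813, 852 and 1023 in old IL27RA+ libraries. No group of it stood apart, and its difference between old fractions was 0.08 ± 0.43 (95% interval -0.84 to 1.01). Pold1, the lagging-strand polymerase, stood at 388, 249.8 and 679.7, at 691, 722 and 201, at 249, 388 and 596, and at 604, 524 and 721, with overlap throughout. Pole, the leading-strand polymerase, stood at 190.2, 175 and 175, at 217, 468 and 306, at 35.6, 125 and 94.2, and at 207, 150.4 and 223. Its old IL27RA- libraries lay below all 9 others, with a difference of -1.25 ± 0.65 with age (limma adjusted p = 0.451) and 1.34 ± 0.65 between old fractions (adjusted p = 0.943).

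Lig1, the ligase that joins Okazaki fragments, stood at 911, 611 and 602 normalized counts in young IL27RA-, 1011, 1174 and 162 in young IL27RA+, 239, 282 and 353 in old IL27RA- and 1031, 722 and 1608 in old IL27RA+ libraries. Old IL27RA- libraries lay below young IL27RA- and old IL27RA+ ones, and replicate 3 of young IL27RA+ was lower still. The difference between old fractions was 1.88 ± 0.61 (limma adjusted p = 0.528). Prim1 and Prim2, the primase subunits, and Fen1, which trims the flaps of Okazaki fragments, also did not overlap between old fractions, with differences of 1.22 ± 0.54, 3.98 ± 1.59 and 1.36 ± 0.61. Fen1 shares 1909 exon bases with the antisense gene Gm10143.

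Nucleotide supply held the smallest adjusted p between old fractions. Tyms, thymidylate synthase, stood at 531, 513 and 456 normalized counts in young IL27RA-, 672, 865 and 296 in young IL27RA+, 144, 167 and 235 in old IL27RA- and 1156, 1057 and 935 in old IL27RA+ libraries. All 3 old IL27RA- libraries lay below, and all 3 old IL27RA+ libraries above, the other 9 libraries. The difference between old fractions was 2.54 ± 0.43 (limma adjusted p = 0.0633, 0.0305 to 0.451 over the alternatives), and 2.39 ± 0.46 (adjusted p = 0.244) without replicate 1 of old IL27RA-. With age it was -1.48 ± 0.43 in IL27RA- (adjusted p = 0.153) and 0.91 ± 0.43 in IL27RA+ cells (adjusted p = 0.568), and between young fractions 0.16 ± 0.43 (adjusted p = 0.950). Tk1, the salvage enzyme for thymidine, was singled out after its values were seen. It stood at 124, 73.0 and 207, at 317, 642 and 12.5, at 0, 112 and 2.51, and at 1347, 779 and 735, so that old IL27RA+ libraries again lay above all others. Its difference between old fractions was 6.96 ± 1.57 (adjusted p = 0.160). It ran from 5.22 to 8.94 over the alternatives and was 5.53 ± 1.55 (adjusted p = 0.531) without replicate 1 of old IL27RA-, which held no read of Tk1.

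Rrm1 and Rrm2 encode the large and small subunits of ribonucleotide reductase. Rrm1 stood at 2257, 1069 and 1622 normalized counts in young IL27RA-, 2125, 1716 and 546 in young IL27RA+, 879, 1562 and 1059.8 in old IL27RA- and 2951, 1137 and 3055 in old IL27RA+ libraries. Rrm2 stood at 78.0, 0 and 0, at 32.0, 30.7 and 3.76, at 15.4, 38.4 and 0, and at 146, 110.2 and 129. Rrm1 overlapped between all groups, whereas Rrm2 was above all other libraries in the old IL27RA+ group, by 3.89 ± 1.81 against old IL27RA- (limma adjusted p = 0.923) and 2.91 ± 1.81 against young IL27RA+ (adjusted p = 0.704). Dut, which removes dUTP, stood at 1344, 1303 and 1522, at 1789, 1922 and 1199, at 1627, 1073 and 897, and at 3302, 2143 and 1506. Its old fractions overlapped through replicate 1 of old IL27RA-, with a difference of 0.92 ± 0.32 (adjusted p = 0.630).

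Of the E2F genes, E2f2 had the lowest level per kb of the whole set. E2f1 stood at 107, 527 and 131 normalized counts in young IL27RA-, 145, 291 and 176 in young IL27RA+, 0, 52.9 and 0 in old IL27RA- and 108, 121 and 24.6 in old IL27RA+ libraries. Both old groups lay below the young group of the same fraction, by -5.70 ± 1.42 in IL27RA- (limma adjusted p = 0.0982) and -1.49 ± 1.42 in IL27RA+ cells (adjusted p = 0.853). With 2 of 3 old IL27RA- libraries at 0 the former depends on the pseudocount. It ran from -7.61 to -3.49 over the alternatives (adjusted p from 0.0304 to 0.452) and was -4.74 ± 1.47 (adjusted p = 0.259) without replicate 1 of old IL27RA-. E2f2 stood at 0, 0 and 36.7 in young IL27RA-, at 0 in every young IL27RA+ and every old IL27RA- library, and at 98.0, 71.8 and 189.8 in old IL27RA+ libraries. Its old IL27RA+ mean rests on 343 reads. Against a floor of 3 reads per library it was at least 36.8-fold higher than in old IL27RA- and at least 36.0-fold higher than in young IL27RA+ cells. E2f2 stood at 10 normalized counts or more in 4 libraries, 3 of them old IL27RA+, so it passed the filter only through the group in which it is high and had to differ. It did not pass the stricter filter of 6 libraries, and its p-values are not read as support for the difference.

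The cyclin E genes, whose products drive entry into DNA synthesis with Cdk2, differed from each other. Ccne2 stood at 295, 326 and 124 normalized counts in young IL27RA-, 576, 923 and 145 in young IL27RA+, 169, 41.5 and 99.2 in old IL27RA- and 979, 245 and 1012 in old IL27RA+ libraries. The old fractions did not overlap, with a difference of 2.80 ± 0.80 (limma adjusted p = 0.362). Ccne1 stood at 78.0, 211 and 0.644, at 16.0, 1.14 and 158, at 83.8, 67.5 and 0, and at 80.4, 0 and 171. It was at or near 0 in a library of every group, and its difference of 0.42 ± 2.42 between old fractions had a 95% interval from -4.75 to 5.59, so neither the direction nor the size of that difference was settled.

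**Figure D5:**
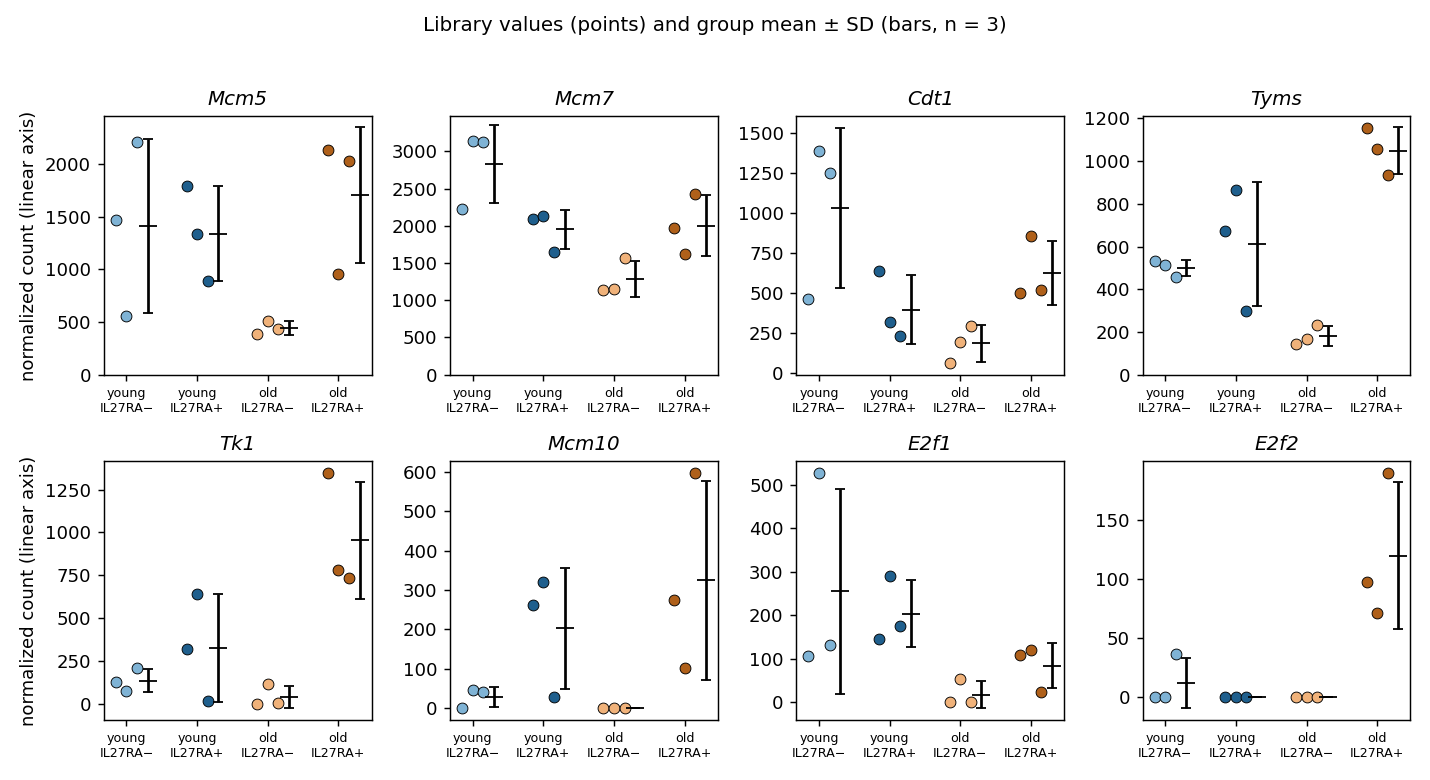
Normalized counts (linear axes) of 8 of the genes in the 12 libraries; points are libraries in the order of replicates, bars are group mean ± SD (n = 3). Old IL27RA- points are the lowest for Mcm5 and Mcm7, old IL27RA+ points are the highest for Tyms, Tk1 and E2f2, and E2f2 is at 0 in 8 of 12 libraries.

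Other genes of replication were read from a list of 53 genes that are not among the 40. Between old fractions 46 of them stood higher in IL27RA+ cells with a median of 0.56, and 18 did not overlap, against 51.9% and 7.25% of all genes. Limma called 1, against 0.0272% of all genes. This was Uhrf1, which guides maintenance of DNA methylation behind the fork: it stood at 0, 1.04 and 42.7 normalized counts in old IL27RA- and 786, 763 and 809.7 in old IL27RA+ libraries, and it rose by 7.46 ± 1.08 (adjusted p = 0.0289). Without replicate 1 of old IL27RA- this difference was 6.38 ± 0.98 and not called (adjusted p = 0.0505), and 9 of 19 alternatives called it. With age in IL27RA- cells 37 of the 53 stood lower, where 52.1% of all genes stood higher, and Uhrf1 fell by 6.43 ± 1.08 (adjusted p = 0.0140) from 529, 386 and 275 in young libraries, a call that 16 of 19 alternatives also made, with adjusted p = 0.0451 without replicate 1 of old IL27RA-. Averaged over ages limma called E2f8, an E2F family repressor, which rose by 5.67 ± 1.04 in IL27RA+ cells (adjusted p = 0.0414, 0.107 without replicate 1 of old IL27RA-, called in 5 of 18 alternatives). E2f8 stood at 7.16, 17.9 and 0 normalized counts in young IL27RA-, 105, 522 and 17.6 in young IL27RA+, 0, 1.04 and 1.26 in old IL27RA- and 239, 121 and 415 in old IL27RA+ libraries. The old IL27RA- values rest on 35 reads for Uhrf1 and 2 for E2f8, so the size of these differences depends on the pseudocount. Wdhd1, a scaffold of the replication fork, and Pola2, the partner subunit of Pola1, had differences of -2.95 ± 0.67 (adjusted p = 0.0679) and -1.70 ± 0.38 (adjusted p = 0.0610) with age in IL27RA- cells. Dtymk, which makes dTDP, differed between young fractions by 0.59 ± 0.23 (adjusted p = 0.535), and E2f7 by -4.71 ± 1.26 (adjusted p = 0.305). In IL27RA+ cells the estimates with age were 4.80 ± 1.26 for E2f7 (adjusted p = 0.159), 2.75 ± 1.63 for Clspn, a checkpoint adaptor at the fork (adjusted p = 0.681), and -0.77 ± 0.49 for Cdc25a, a phosphatase that activates Cdk2 (adjusted p = 0.717).

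The 20 mitosis genes all stood higher in IL27RA+ cells in old mice, with a median of 4.83, and 18 did not overlap, against 51.9% of all genes higher and 7.25% higher without overlap. Limma called 0 of them in that comparison, and 16 had an unadjusted p under 0.05 (3.72% of all genes, higher). In young mice all 20 also stood higher in IL27RA+ cells, with a median of 1.92, 2 had an unadjusted p under 0.05 (4.56% of all genes, higher) and 0 separated the groups (5.05%), whereas the replication genes there had a median of 0.07. The difference between those medians was not tested. Birc5, a chromosomal passenger protein, stood at 399, 0 and 0 normalized counts in young IL27RA-, 1125, 2686 and 96.6 in young IL27RA+, 0, 4.15 and 5.02 in old IL27RA- and 1944, 1542 and 1072 in old IL27RA+ libraries. It rose by 7.69 ± 1.35 in IL27RA+ cells averaged over ages (limma adjusted p = 0.0364, 0.103 without replicate 1 of old IL27RA-, called in 5 of 18 alternatives). Its old IL27RA- value rests on 8 reads, so the size of this difference depends on the pseudocount. Aurkb, its kinase partner, stood at 0, 0 and 1.26 in old IL27RA- and 1396, 923 and 929 in old IL27RA+ libraries (adjusted p = 0.142), and Bub1, a spindle checkpoint kinase, at 0 in every old IL27RA- library and at 667, 271 and 352 in old IL27RA+ ones (adjusted p = 0.101). Plk1, another mitotic kinase, stood at 15.9, 0 and 0 in young IL27RA- and 156, 358 and 8.78 in young IL27RA+ libraries (adjusted p = 0.466). With age in IL27RA- cells Cdk1, the mitotic kinase, differed by -3.68 ± 1.13 (adjusted p = 0.177), Top2a by -2.78 ± 1.15 (adjusted p = 0.339) and Kif23 by -1.97 ± 0.63 (adjusted p = 0.205).

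Markers of other cell types moved with some of the same groups. Of 10 macrophage markers, 8 stood at 10 normalized counts or more in every young IL27RA+ library and 9 in every old IL27RA+ library, against 3 in each IL27RA- group. Between old fractions 9 of the 10 were higher in IL27RA+ cells, with a median difference of 4.22 and 5 without overlap, against 51.9% of all genes higher and 7.25% higher without overlap. The 9 and the median include Cd5l and Adgre1, and the 5 include Cd5l. Both passed the filter only through IL27RA+ libraries and were at 0 in every old IL27RA- library, so neither could be lower in old IL27RA+ cells. Vcam1 was at 0.963 to 1.26 in old IL27RA- and 28.7 to 865 in old IL27RA+ libraries, and C1qb at 0 to 1.04 and 146 to 891. Within old IL27RA+ cells replicate 2 had both the lowest macrophage sum, 1150, and the lowest replication sum, 32362. Within young IL27RA+ cells replicate 3, with a macrophage sum of 5574, had the lowest replication sum, 22577.

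Of 9 erythroid markers tested, 8 were higher in old IL27RA+ than in old IL27RA- cells, against 51.9% of all genes, with a median difference of 0.67. The sum of that list was led by Car2, at 44567 to 50835 normalized counts in old IL27RA+ and 31016 to 42179 in old IL27RA- libraries. Without Car2 the sums were 660.0 to 1701 and 464 to 715. Gata1 stood at 357, 0.958 and 343 in old IL27RA+ and 0, 0 and 75.3 in old IL27RA- libraries, and Tfrc, the transferrin receptor, at 788, 449 and 587 against 314, 177 and 448. The neutrophil sum was led by Prtn3, at 7609 to 13151 in old and 3566 to 5140 in young libraries. Without it that sum was 11.6 to 82.9 in old IL27RA-, 126 to 199 in old IL27RA+, 0.716 to 80.4 in young IL27RA- and 308 to 362 in young IL27RA+ libraries, and Mpo was at 0 in all but the last group. The antibody and B cell list summed to 374212 in replicate 1 of old IL27RA- and to 687 to 1448 in the other 11 libraries. HSC markers summed to 63163 to 72236 in old IL27RA- and 46759 to 53245 in the other 3 groups. T and NK cell markers summed to 1464 to 3043 in old IL27RA- and 721 to 1523 in old IL27RA+ libraries. Without Klrb1c, which led that sum, they held 30.8 to 121 and 120 to 138. In the same groups megakaryocyte markers summed to 34104 to 37408 and 25235 to 38144. Stroma and endothelium markers summed to 1872 to 2226 and 1381 to 1809. The part of these levels in the differences of the replication genes was not tested.

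Genes with an E2F-type match were set beside the rest. Between old fractions the 11 matching genes had a median difference of 0.82, and the 21 genes with a window and no match had 1.22; 10 and 21 of them stood higher in IL27RA+ cells. With age in IL27RA- cells the medians were -1.07 and -0.75. The difference between the 2 sets was not tested, and E2f2 and Mcm5, whose sequences are shown above, hold a match while Tyms, Tk1 and Mcm10 do not in these windows.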

How the data were processed

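The authors deposited 1 table of log2 values. Its low values show that each is the log2 of 1 plus a gene's reads over a scaling factor of the library; 1 column holds an unreadable number on 1 damaged line. The submitters' processing notes list TopHat2 2.1.1, FastQC 0.11.5, DESeq2 and HTSeq without saying what each was used for, and the build behind the counts is not given in the sources used. Of 20473 lines, 1 damaged line (Mtbp) and 15 repeats were left out. Undoing the log2 and taking off 1 gave normalized counts, and reads came out whole for 100% of values within 0.001. Libraries were grouped by title and age. Limma 3.58.1 (R 4.3.3, variance trend, 8 residual degrees of freedom) was fitted with a mean per group, without replicate blocks, to genes at 10 or more in at least 3 libraries. On counts simulated for old IL27RA+ against old IL27RA- cells over 15076 genes, it recovered 61% of 4-fold and 95% of 16-fold changes with 3 false calls. There 100 genes were changed by each fold at once, while limma called 0.0272% of all genes in the real comparison. The adjusted threshold is easier to pass when many genes change, so recovery in the real comparison may be lower. The changed genes were drawn only from genes with a read in every library, as 31 of the 40 are, and each gene was simulated independently. Recovery was therefore not measured for genes without a read in some library, such as Mcm10, Tk1, E2f1 and E2f2. A fold on the log2 scale understates changes of low genes. The 40 genes, the other lists and the tests were chosen with earlier results of these data known. Values in every library are given for the genes called, for the 3 genes of each role with the highest mean log2 value and for the gene with the smallest p in each role and 2-group comparison. Of the other replication and the mitosis genes, those called and the 3 with the smallest p in each 2-group comparison are named. Alternatives were no filter, a stricter filter (6 libraries), a pseudocount of 10, quantile normalization, voom on recovered reads, only the groups compared, a replicate block and leaving out each library. Exon lengths and overlaps came from GENCODE vM21 by gene identifier; promoters came from RefSeq (GRCm38.p6). The 95% intervals come from limma's estimate of the scatter between libraries within groups. Floors rest on reads and cover counting error only.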

Additional observations from a re-analysis of the deposited data

How the results depend on the processing

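Calls among the 40 genes were few under every alternative tried. Between old fractions 1 gene (Tyms) was called with a pseudocount of 10, 2 (Tyms and Mcm10) when only those groups were fitted, and 0 to 2 when a library was left out: 2 without replicate 1 of young IL27RA-, and 1 (Tyms) without replicate 2 of that group or replicate 3 of young IL27RA+. With age in IL27RA- cells 1 gene (Mcm7) was called with quantile normalization and 1 (Mcm7) with voom. Leaving out a library gave 0 to 2: Cdt1 and Mcm7 without replicate 1 of young IL27RA-, Mcm5 without replicate 2 of it, and E2f1 without replicate 2 of old IL27RA-. With age in IL27RA+ cells E2f2, which passed the filter only through old IL27RA+, was the 1 gene called with a pseudocount of 10, and 0 to 1 were called with a library left out (1 without replicate 3 of young IL27RA-). Averaged over ages the range was 0 to 2, with Mcm10 called without replicate 1 of young IL27RA-, and Mcm10 and Tyms without replicate 3 of young IL27RA+. Averaged over fractions it was 0 to 1, with E2f1 called without replicate 2 of old IL27RA-, at -4.55 (limma adjusted p = 0.0131). Between young fractions and for the interaction 0 were called under every alternative. The cause of these changes was not tested.

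The median of the 40 differences ran from 0.99 to 1.39 between old fractions with a library left out, from -0.98 to -0.50 with age in IL27RA-, from 0.23 to 0.75 with age in IL27RA+, from -0.10 to 0.34 between young fractions, from 0.45 to 0.67 averaged over ages, from -0.30 to -0.01 averaged over fractions and from 0.79 to 1.42 for the interaction. The interaction median was lowest without replicate 1 of young IL27RA-. For single genes 20 of 5193 alternative values gained a call, 0 lost one, and 186 changed sign while uncalled. Whether replicate numbers pair the libraries was not settled. Over all groups, deviations of libraries with the same number correlated with r from -0.05 to 0.11, and those of others from -0.07 to 0.07. Between the fractions of the same age, every pair with the same number had a positive r, from 0.0038 to 0.1071. Pairs with different numbers there ran from -0.0676 to 0.0382. With a replicate block 1 gene, E2f1, was called averaged over fractions (-3.59, limma adjusted p = 0.0499), and no other count of calls changed. Counts without overlap and without replicate 1 of old IL27RA- were added after the data were seen. At 3 libraries a group, the intervals printed above are ranges of differences that the data leave possible. They are not limits of detection.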
